A study of Mus musculus with 5 samples.

Results

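A set of 10 genes that mark oligodendrocyte progenitor cells, of 46078 genes listed for each library, were followed in cultured neural precursor cells of the subventricular zone of mice, a stem cell niche beside the lateral ventricles of the forebrain. They were found by their gene symbols: Olig1, Olig2, Sox10, Pdgfra, Gpr17, Nkx2-2, Lhfpl3, Pcdh15, Matn4 and Bcas1. All 10 were present in the table of every library, and 9 of them had a mean of at least 1 TPM (a length-corrected share of all transcripts of a library, scaled to the same total in each). RNA-sequencing was done on 5 libraries of C57BL/6 mice without a mutation, all labelled as female, which expression did not bear out in series 1 (below). The labels give an age of 5 to 8 weeks, although the methods of the study give an older age. All cells had received PBS as a sham exposure, and RNA was taken 1 h later in 2 libraries (replicates 1 and 2) and 8 h later in 3 libraries (replicates 13, 14 and 15). Per the methods, the cells had been expanded as floating spheres with EGF and FGFb, passaged and plated on poly-D-lysine, were taken before differentiation, and each replicate was 1 animal. Libraries of cells exposed to hydrogen peroxide were not analysed here.

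Oligodendrocyte progenitor cells proliferate in response to platelet-derived growth factor, which they sense through the receptor PDGFRA, and later leave the cell cycle to become myelinating oligodendrocytes. The transcription factors OLIG2, SOX10 and NKX2-2 direct this lineage. Precursor cells of the subventricular zone form oligodendrocytes as well as neurons and astrocytes, and Olig2 is also expressed in proliferating intermediate progenitors that are not committed to oligodendrocytes. RNA from whole cultures cannot tell fewer expressing cells apart from less RNA per cell.

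The libraries did not form one uniform set. Library identifiers in the labels fall into 2 number series, and no source used here gives the meaning of the series. Series 1 held both 1 h libraries and 8 h replicate 14, and series 2 held 8 h replicates 13 and 15 alone. The label gives female mice throughout, yet Xist, the RNA of the inactive X chromosome, was at 165.3 and 199.7 TPM in the series 2 libraries and at 0.0611 TPM or less in the series 1 libraries, whereas the summed TPM of the Y-linked genes Ddx3y, Eif2s3y, Kdm5d and Uty was between 138 and 181 in series 1 and at most 0.0253 in series 2. By these genes the series 1 libraries read as male and the series 2 libraries as female. Sex and series therefore cannot be told apart here. Mitochondrial transcripts made up 10.7% to 11.1% of TPM in series 1 and 6.23% to 6.30% in series 2. Depth, read as the ratio of coverage to FPKM, ranged from 5.57 to 7.18. A comparison of all 8 h with all 1 h libraries is therefore in part one of these series, and the results below are also given with the series in view.

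The 10 genes spanned a wide range of levels, and the lineage transcription factors Olig1 and Olig2 stood far above the rest. Olig1 had a mean of 1345 TPM over the 5 libraries, which placed it at rank 79 of all genes, and Olig2 had 536 TPM, at rank 230. Together they held between 82.8% and 90.2% of the summed TPM of the 10 genes. Lhfpl3 followed at 109.6 TPM, Pdgfra at 53.1 TPM and Bcas1 at 34.6 TPM, and these 5 genes kept this order in every library with no overlap between neighbouring ranges. Gpr17 (23.7 TPM), Sox10 (22.3 TPM), Pcdh15 (20.3 TPM) and Nkx2-2 (11.8 TPM) came next, each with a range over libraries that overlapped that of the gene before it. Matn4 was lowest, at 0.665 TPM.

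**Figure D1:**
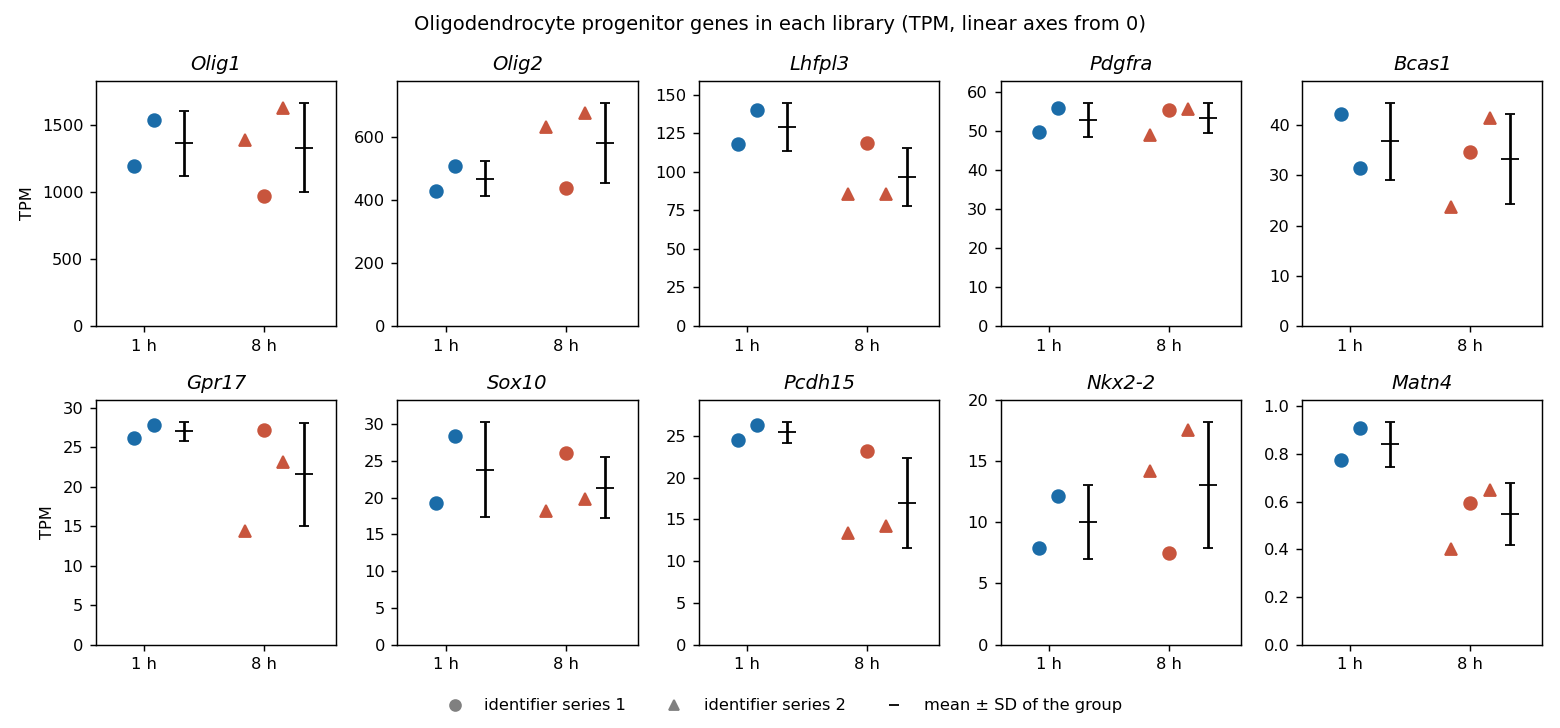
TPM (linear axes from 0) of each of the 10 genes in the 1 h libraries (blue, n = 2) and the 8 h libraries (red, n = 3), in order of mean level. Circles are libraries of identifier series 1, triangles those of series 2, and the black mark with bars is the group mean ± SD. Pcdh15 and Matn4 are the genes whose 3 values at 8 h all lie below both values at 1 h.

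None of the 9 genes tested was called between 8 h and 1 h. Differences were tested across 13870 genes with limma on log2(TPM + 1), and a call needed both a Benjamini-Hochberg adjusted p no higher than 0.05 and a log2 fold change beyond 1 in either direction. In the same fit 6 of all genes were called (0.0433%). At an unadjusted p under 0.05, 1 of the 9 genes passed, against 12.3% of all genes. The median log2 fold change of the 9 genes was -0.14, and that of all genes tested was 0.10. The separately deposited count table lists 4 of these genes, but its 8 h columns could not be tied to the TPM tables of the same name (below). With the columns taken by name, edgeR called 0 of the 4. Of these 4, 0 had an unadjusted p under 0.05 (2.62% of all genes tested in that table did), and DESeq2 and limma-voom called none of them either.

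Olig1 and Olig2 encode related basic helix-loop-helix factors and lie beside each other on chromosome 16. Olig2 occupies chr16:91225550-91228677 and Olig1 chr16:91269772-91271933 (GRCm38, both on the plus strand), with 41094 bases between them, and each has 1 annotated transcript. Olig1, which promotes the maturation of oligodendrocytes and remyelination, was at 1193 and 1537 TPM in 1 h replicates 1 and 2 and at 1393, 972 and 1629.9 TPM in 8 h replicates 13, 14 and 15. The groups overlapped, since the 8 h libraries held both the lowest and the highest value. The mean was 1365 ± 243 TPM (SD, n = 2) at 1 h and 1332 ± 333 TPM (SD, n = 3) at 8 h. The log2 fold change was -0.057 ± 0.24 (limma ± SE, adjusted p = 0.916).

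Olig2, which specifies the lineage and is required for its progenitors, was at 429 and 507 TPM at 1 h and at 631, 438 and 675 TPM at 8 h. Both series 2 libraries exceeded the other 3, and 8 h replicate 14 fell between the 1 h values. The mean was 468 ± 55.0 TPM (SD, n = 2) at 1 h and 581 ± 126 TPM (SD, n = 3) at 8 h, with a log2 fold change of 0.29 ± 0.21 (limma ± SE, adjusted p = 0.523). The ratio of Olig1 to Olig2 was 2.78 and 3.03 in the 1 h libraries and 2.21, 2.22 and 2.42 in the 8 h libraries. Here 8 h replicate 14 grouped with the other 8 h libraries and not with its own identifier series, but the difference in this ratio was seen after the fact and was not tested.

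Nkx2-2 encodes a homeodomain factor that promotes the step from progenitor to oligodendrocyte, and lies at chr2:147177546-147194243 on the minus strand. It was at 7.87 and 12.1 TPM at 1 h and at 14.2, 7.44 and 17.5 TPM at 8 h. As with Olig2, the series 2 libraries were highest, and the lowest value was that of 8 h replicate 14. The mean was 9.99 ± 3.00 TPM (SD, n = 2) at 1 h and 13.1 ± 5.14 TPM (SD, n = 3) at 8 h, with a log2 fold change of 0.31 ± 0.36 (limma ± SE, adjusted p = 0.684). Its highest value was 2.35 times its lowest, the widest range of the 10 genes. The antisense RNA Nkx2-2os overlaps its exons and had a mean of 0.189 TPM.

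The upstream sequences of Olig2 and Nkx2-2 are shown because these were the genes that were higher in both series 2 libraries than in all others. Each stretch covers 150 bases that begin 250 bases before the RefSeq start site (GRCm38.p6), is written 5′ to 3′ on the strand of the gene and touches no annotated exon. Capitals mark matches, on either strand, to the E-box CANNTG (bound by basic helix-loop-helix factors), the SOX core ACAAT or the TATA letters TATAA. Olig2 is at chr16:91225300-91225449 on the plus strand, and Nkx2-2 at chr2:147186503-147186652 on the minus strand.
Olig2: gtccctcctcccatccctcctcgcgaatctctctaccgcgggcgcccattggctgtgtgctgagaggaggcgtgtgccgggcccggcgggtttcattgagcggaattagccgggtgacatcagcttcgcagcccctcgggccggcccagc
Nkx2-2: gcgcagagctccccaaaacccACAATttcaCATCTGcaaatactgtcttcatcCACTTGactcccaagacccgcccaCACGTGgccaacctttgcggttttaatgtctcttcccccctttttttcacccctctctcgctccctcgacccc
The Olig2 stretch had no match to any of the 3 motifs and a GC content of 68.0%, and the Nkx2-2 stretch had 3 E-boxes and 1 SOX core at a GC content of 54.0%. Of 32851 promoters in the same window, 49.3% held an E-box, 18.6% a SOX core and 14.8% the TATA letters. The matches are a description of letters alone. The Nkx2-2 start site used here lies 7841 bases inside the gene as the expression tables draw it, so it is one of several annotated starts.

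Sox10, which switches on myelin genes and is kept on from progenitor to mature oligodendrocyte, lies at chr15:79154913-79164490 on the minus strand. It was at 19.2 and 28.4 TPM at 1 h and at 18.1, 26.1 and 19.8 TPM at 8 h. The groups overlapped, and 8 h replicate 14 fell between the 1 h values. The mean was 23.8 ± 6.51 TPM (SD, n = 2) at 1 h and 21.4 ± 4.20 TPM (SD, n = 3) at 8 h, with a log2 fold change of -0.14 ± 0.22 (limma ± SE, adjusted p = 0.764).

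Pdgfra, the receptor that drives division of these progenitors, was the steadiest of the 10 genes. It lies at chr5:75152292-75198215 on the plus strand. Its values were 49.7 and 55.8 TPM at 1 h and 49.0, 55.4 and 55.5 TPM at 8 h, so that the highest was only 1.14 times the lowest. The mean was 52.7 ± 4.32 TPM (SD, n = 2) at 1 h and 53.3 ± 3.75 TPM (SD, n = 3) at 8 h, and the log2 fold change was 0.016 ± 0.11 (limma ± SE, adjusted p = 0.950). Its sign was negative after median-ratio scaling (-0.090).

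The ligand side of this pathway was represented by Pdgfa, the main ligand of the receptor, at 50.6 and 39.5 TPM at 1 h and 24.2, 60.4 and 27.6 TPM at 8 h. Both low values belonged to series 2, and 8 h replicate 14 was the highest library. The mean of Pdgfa in series 2 was 0.517 times that in series 1. The log2 fold change between times was -0.37 ± 0.39 (limma ± SE, adjusted p = 0.647). Pdgfrb, the partner receptor that marks pericytes, had a mean of 0.0743 TPM. Pdgfc, another ligand, and Pdgfrl had log2 fold changes of -0.35 and 0.37. Of the 6 ligand and receptor genes listed, 3 were tested, and 0 were called higher and 0 lower at 8 h. By series, 2 of the 3 were lower and 1 higher in both series 2 libraries than in all others, against 13.5% and 39.8% of all genes.

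Gpr17 encodes a G protein-coupled receptor of progenitors that are about to differentiate, and lies on the minus strand of chromosome 18. It was at 26.2 and 27.8 TPM at 1 h and at 14.4, 27.1 and 23.2 TPM at 8 h. The 3 series 1 libraries lay close together, and both series 2 libraries lay below them. The mean was 27.0 ± 1.20 TPM (SD, n = 2) at 1 h and 21.6 ± 6.52 TPM (SD, n = 3) at 8 h, with a log2 fold change of -0.36 ± 0.26 (limma ± SE, adjusted p = 0.538). Its exons overlap those of Lims2 on the opposite strand, which had a mean of 3.25 TPM.

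Pcdh15 and Lhfpl3 encode membrane proteins, and both showed lower values in series 2. Pcdh15, a protocadherin best known from the hair cells of the inner ear, lies at chr10:73099342-74649737 on the plus strand. It was at 24.6 and 26.3 TPM at 1 h and at 13.4, 23.2 and 14.3 TPM at 8 h. All 8 h values were lower than both 1 h values, though 8 h replicate 14 was much closer to the 1 h libraries than to its own group. Among the 9 genes tested, Pcdh15 was the 1 gene whose groups did not overlap with 8 h lower, a pattern that 9.43% of all genes showed, and in 0 of the 9 did 8 h lie higher without overlap (23.7% of all genes). The mean was 25.4 ± 1.25 TPM (SD, n = 2) at 1 h and 16.9 ± 5.40 TPM (SD, n = 3) at 8 h, and the log2 fold change was -0.60 ± 0.24 (limma ± SE, unadjusted p = 0.0480, adjusted p = 0.403).

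Lhfpl3, a tetraspan protein related to a partner of PCDH15 in hair cells, lies at chr5:22746059-23275597 on the plus strand. It was at 118.1 and 139.9 TPM at 1 h and at 85.9, 119 and 85.3 TPM at 8 h. The series 2 values were nearly equal and the lowest, and 8 h replicate 14 was just above 1 h replicate 1. The mean was 129 ± 15.4 TPM (SD, n = 2) at 1 h and 96.6 ± 19.1 TPM (SD, n = 3) at 8 h, with a log2 fold change of -0.43 ± 0.18 (limma ± SE, adjusted p = 0.403). An antisense transcript, RP24-324L19.4, overlaps its exons and had a mean of 2.08 TPM.

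The same upstream stretch is shown for Lhfpl3 and Pcdh15, the pair among the 9 genes tested whose profiles over the 5 libraries were most alike. Lhfpl3 is at chr5:22745804-22745953 and Pcdh15 at chr10:73821617-73821766, both on the plus strand, with capitals as above.
Lhfpl3: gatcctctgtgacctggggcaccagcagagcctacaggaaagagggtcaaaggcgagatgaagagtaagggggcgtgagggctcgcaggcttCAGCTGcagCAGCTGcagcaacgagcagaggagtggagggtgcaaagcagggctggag
Pcdh15: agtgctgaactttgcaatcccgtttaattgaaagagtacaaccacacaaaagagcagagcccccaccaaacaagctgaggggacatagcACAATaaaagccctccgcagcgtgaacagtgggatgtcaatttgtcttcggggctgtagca
The Lhfpl3 stretch had 2 E-boxes and no SOX core, and the Pcdh15 stretch had 1 SOX core and no E-box, so the 2 sequences shared none of the searched motifs. Their GC contents were 61.3% and 48.7%. The Lhfpl3 stretch overlaps an exon of the antisense transcript named above. The RefSeq start of Pcdh15 lies 722525 bases inside the gene as the tables draw it.

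Matn4, an extracellular matrix protein of the matrilin family, lies at chr2:164389393-164405160 on the minus strand and did not reach the filter on low values. It was at 0.774 and 0.907 TPM at 1 h and at 0.401, 0.593 and 0.650 TPM at 8 h. The groups did not overlap, but all values were under 1 TPM. In a fit without the filter the log2 fold change was -0.25 (limma, adjusted p = 0.538).

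Bcas1, which marks newly formed and early myelinating oligodendrocytes, lies at chr2:170346991-170427845 on the minus strand. It was at 42.1 and 31.4 TPM at 1 h and at 23.8, 34.6 and 41.4 TPM at 8 h. The groups overlapped, and the 2 series 2 libraries were the lowest and the highest at 8 h. The mean was 36.7 ± 7.59 TPM (SD, n = 2) at 1 h and 33.3 ± 8.90 TPM (SD, n = 3) at 8 h, with a log2 fold change of -0.16 ± 0.25 (limma ± SE, adjusted p = 0.765).

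**Figure D2:**
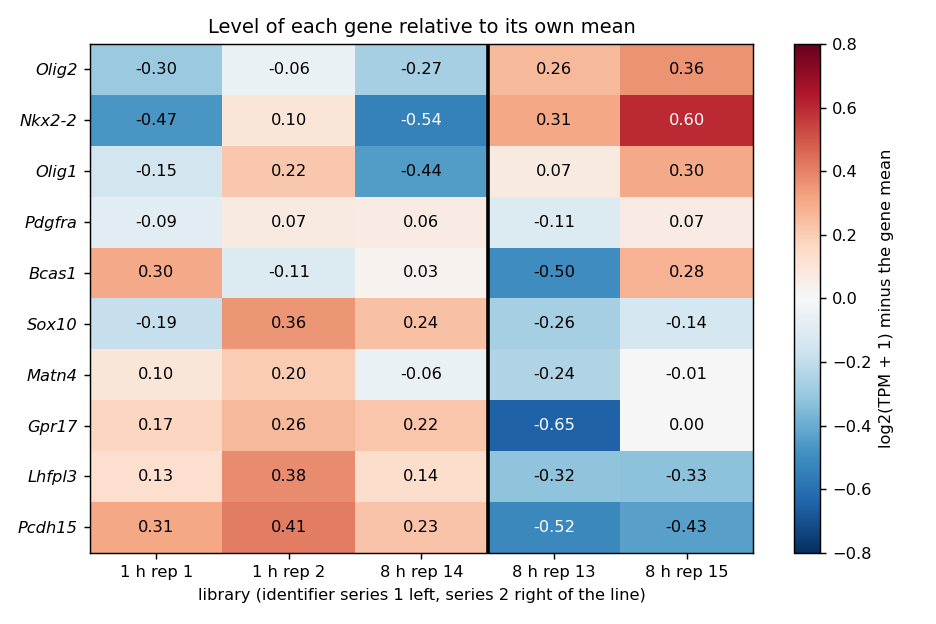
Log2(TPM + 1) of each gene minus its mean over the 5 libraries, with the value written in each field (red higher, blue lower than the mean of the gene). The black line separates identifier series 1 (left) from series 2 (right), and the upper rows are higher and the lowest rows lower in series 2. In the Pdgfra row every value lies between -0.11 and 0.07.

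Sorted by identifier series, 5 of the 10 genes did not overlap between the series, and the series separated large shares of all genes too. Olig2 and Nkx2-2 were higher in both series 2 libraries than in all series 1 libraries, a pattern shown by 39.8% of all genes, and Gpr17, Lhfpl3 and Pcdh15 were lower in both, as were 13.5% of all genes. The mean in series 2 over that in series 1 was 1.74 for Nkx2-2, 1.43 for Olig2, 0.694 for Gpr17, 0.682 for Lhfpl3 and 0.560 for Pcdh15. Between 8 h replicate 14 and the mean of the 1 h libraries, which share series 1, the ratio was 0.745, 0.937, 1.01, 0.919 and 0.910 for the same genes.

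With both time and series in the limma fit, the series difference was that of 8 h replicates 13 and 15 against 8 h replicate 14 alone, and the time difference was that of replicate 14 against the 1 h libraries. The spread in this fit comes from the 1 h pair and the series 2 pair, and replicate 14, alone in its arm, is assumed to vary as they do. Pcdh15 was lower in series 2 by a log2 difference of -0.70 ± 0.13 (limma ± SE, adjusted p = 0.0312), and Olig2 was higher by 0.57 ± 0.13 (limma ± SE, adjusted p = 0.0495). These 2 of 9 genes passed the adjusted p alone, as did 9.09% of all genes, and 0 of 9 also passed the fold threshold, against 4.02%. Nkx2-2 had a log2 difference of 0.99 (limma, adjusted p = 0.0762), Olig1 of 0.63 (limma, adjusted p = 0.0840) and Lhfpl3 of -0.47 (limma, adjusted p = 0.0867), and none of these passed.

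In the time term of the same fit the difference of Pcdh15 and Lhfpl3 was smaller. For Pcdh15 the log2 fold change from 1 h to 8 h was -0.13 ± 0.13 and for Lhfpl3 it was -0.12 ± 0.13 (limma ± SE, adjusted p = 0.812 and 0.831). For Olig2 it was -0.089, for Nkx2-2 -0.35 and for Gpr17 0.0080, each opposite in sign to the fit without the series. None of the 9 genes was called, and 0.137% of all genes were. Olig1 had the lowest adjusted p, at a log2 fold change of -0.48 ± 0.18 (limma ± SE, adjusted p = 0.505), where 8 h replicate 14 was its lowest library.

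Leaving out 8 h replicate 14 made time and series coincide, and the log2 fold change was then -0.83 for Pcdh15 (limma, adjusted p = 0.00798), -0.58 for Lhfpl3 (limma, adjusted p = 0.0196) and 0.48 for Olig2 (limma, adjusted p = 0.0289). Over all alternatives the adjusted p ran from 0.00798 to 0.830 for Pcdh15, from 0.0196 to 0.950 for Lhfpl3 and from 0.0289 to 0.882 for Olig2. Without that library 3 of 9 genes passed the adjusted p alone, against 19.9% of all genes, and 0 of 9 passed the fold threshold as well, against 4.1%. In these 4 libraries, an effect of time and a difference between the series cannot be told apart.

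**Figure D3:**
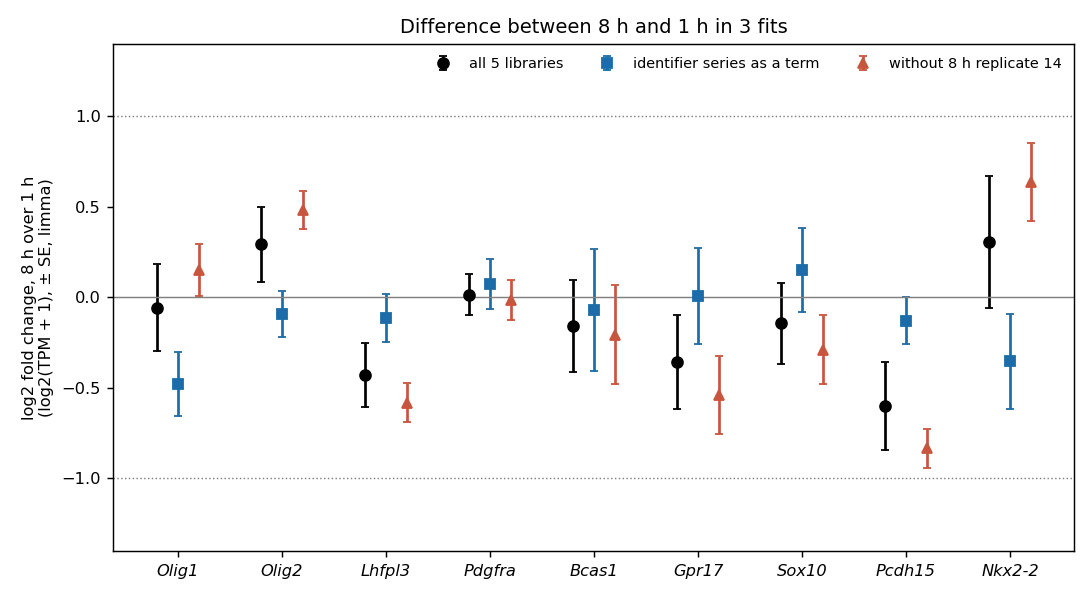
Log2 fold change from 1 h to 8 h ± SE (limma on log2(TPM + 1)) of the 9 genes tested, in 3 fits: all 5 libraries (black circles), the identifier series as a term (blue squares) and without 8 h replicate 14 (red triangles). Dotted lines mark the fold threshold, which no gene passed, and Pcdh15 moved from -0.60 to -0.13 when the series was a term and to -0.83 without replicate 14.

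TPM adds up the estimates for the transcripts of a gene, so genes with many transcripts were also read as coverage per base of the whole gene, divided by the depth of the library. For Olig1, Olig2, Sox10 and Gpr17 the FPKM value equalled this scaled coverage (a ratio of 1.00 in 1 h replicate 1), whereas it was 35.5 times the coverage for Pcdh15, which has 41 annotated transcripts, and 7.38 times for Bcas1, which has 9. The scaled coverage of Pcdh15 was 0.305 and 0.508 at 1 h and 0.264, 0.488 and 0.294 at 8 h. In this measure 1 h replicate 1 was close to the series 2 libraries, the groups overlapped, and the log2 fold change was -0.18 ± 0.30 (limma ± SE, adjusted p = 0.789). The separation of Pcdh15 between 8 h and 1 h was thus present in TPM and absent in coverage.

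Lhfpl3 behaved differently. Its scaled coverage was 32.7 and 33.4 at 1 h and 22.6, 32.5 and 22.1 at 8 h, so that all 8 h values lay below the 1 h values, by a small margin in 8 h replicate 14. The log2 fold change was -0.38 ± 0.19 (limma ± SE, adjusted p = 0.456). With the identifier series as a term, the coverage of Lhfpl3 gave -0.022 and that of Pcdh15 turned to 0.24 (limma, adjusted p = 0.950 and 0.830).

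**Figure D4:**
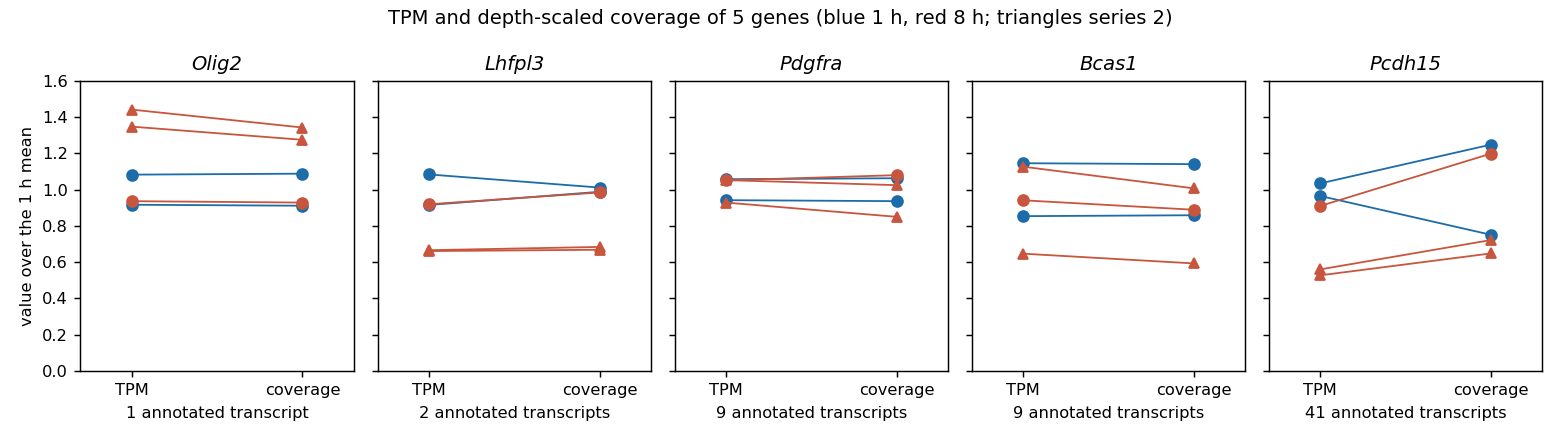
Value of each library over the mean of the 1 h libraries, as TPM (left in each panel) and as depth-scaled coverage (right), for 5 genes with the number of annotated transcripts under each panel. Blue is 1 h and red is 8 h, circles are identifier series 1 and triangles series 2. Lines are near level for Olig2, and those of the 1 h libraries diverge for Pcdh15, where 1 h replicate 1 moves from beside 8 h replicate 14 to beside the triangles.

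The count table lists Sox10, Pdgfra, Nkx2-2 and Bcas1. Its 8 h columns could not be tied to the TPM tables of the same name. Within 0.1 on the log2 scale, 76.3% of 7589 genes of each 1 h column matched the table of the same library, but for the column named 8 h replicate 13 the share was 23.9% with its own table and 77.3% with that of 8 h replicate 14, and for the column named 8 h replicate 15 it was 77.3% with the table of 8 h replicate 13. The share of the column named 8 h replicate 14 did not exceed 37.9% with any table. The 4 genes are therefore given by column name.

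Pdgfra had 191 and 219 CPM (counts scaled to the column total) at 1 h and 223, 202 and 169 CPM in the columns named 8 h replicates 13, 14 and 15. Its log2 fold change was small, at -0.078 ± 0.15 (edgeR ± SE, adjusted p = 0.969), although its highest and lowest values were both in columns named for 8 h. Sox10 had 37.1 and 55.4 CPM at 1 h and 50.3, 71.0 and 32.0 CPM at 8 h (log2 fold change 0.11 ± 0.34 as SE, edgeR, adjusted p = 0.979), and Nkx2-2 had 8.79 and 15.0 CPM at 1 h and 9.65, 22.8 and 17.5 CPM at 8 h (0.45 ± 0.41 as SE, edgeR, adjusted p = 0.966). Bcas1 stood out, with 108 and 87.5 CPM at 1 h and 100.5, 345 and 39.0 CPM at 8 h. The column named 8 h replicate 14 was 3.19 times the next highest. It held the highest value of 3 of the 4 genes, against 26.9% of all genes of the table, and exceeded all other columns by more than 1.5 times for 1 of the 4, against 2.75%. The log2 fold change of Bcas1 was 0.69 ± 0.81 (edgeR ± SE, adjusted p = 0.966), and -0.49 without that column.

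Beyond these 10 genes, 22 further genes of oligodendrocyte progenitors were described together, of which 19 were tested. Of these, 0 were called higher and 0 lower at 8 h, and their median log2 fold change was 0.15, close to the 0.10 of all genes. The most abundant were Ptprz1, a receptor phosphatase (1113 TPM), Tmem176b (299.8 TPM) and Epn2 (147 TPM). Sox6, which holds progenitors immature, was lower at 8 h without overlap (67.4 against 47.5 TPM on average, log2 fold change -0.53 ± 0.23 as SE, limma, adjusted p = 0.409). Cacng4, which encodes an AMPA receptor accessory subunit, did the same (51.4 against 39.2 TPM; log2 fold change -0.39, limma, adjusted p = 0.403), and so did Sox5 (-0.18). By series, Sox6 was at 63.0 TPM in 8 h replicate 14 and at 35.6 and 43.9 TPM in series 2, and Cacng4 at 46.8 TPM beside 35.0 and 36.0 TPM, so that both were also lower in series 2 without overlap. Of the 19, 6 were lower and 8 higher in both series 2 libraries than in all others, against 13.5% and 39.8% of all genes. Luzp2, 1 of those that were higher, was at 91.7 and 110 TPM in series 2 and at 31.6 to 36.1 TPM in series 1. In all, 3 of the 19 were lower at 8 h without overlap, against 9.43% of all genes, and 1 of the 19, Epn2, was higher (131 against 157 TPM), against 23.7% of all genes.

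Regulators of the lineage factors, 14 in number with 12 tested, also gave 0 calls in either direction, at a median log2 fold change of -0.25. The most abundant were the helix-loop-helix genes Tcf12 (339 TPM), Id2 (151 TPM) and Tcf4 (124 TPM). Of the 12, 4 had lower values at 8 h without overlap, against 9.43% of all genes: Id4, Id2, Hes5 and Zfp488. Id4, an inhibitor of basic helix-loop-helix factors that holds progenitors undifferentiated, was at 20.3 and 16.5 TPM at 1 h and at 7.48, 5.48 and 8.78 TPM at 8 h. In contrast to Pcdh15, its 8 h replicate 14 was the lowest library. Its log2 fold change was -1.25 ± 0.21 (limma ± SE, unadjusted p = 0.00110, adjusted p = 0.241). Hes5, a Notch target that represses differentiation, had a log2 fold change of -1.11 and Id2, which binds OLIG proteins, of -1.06 (limma, adjusted p = 0.309 for both). Id2 was at 152 TPM in 8 h replicate 14 and at 90.2 and 80.6 TPM in series 2, and Zfp488 at 8.10 beside 3.68 and 5.55 TPM. Both were thus also lower in series 2 without overlap. Of the 12, 4 were lower and 2 higher in both series 2 libraries than in all others, against 13.5% and 39.8% of all genes. Olig3, the remaining Olig gene, was listed at 0 in every library.

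Genes of differentiating oligodendrocytes and myelin, 20 listed and 16 tested, had a median log2 fold change of -0.47, with 0 called in either direction. Of the 16, 7 were lower at 8 h without overlap (9.43% of all genes), and 9 of the 16 were lower in both series 2 libraries than in all others (13.5% of all genes). The most abundant were Fyn, a kinase of early differentiation (344 TPM), Cnp (149.7 TPM) and Sirt2 (100.3 TPM). Mbp, encoding myelin basic protein, was at 38.5 and 31.7 TPM at 1 h and at 7.96, 27.8 and 11.0 TPM at 8 h. The series 2 libraries were far below the rest. Its log2 fold change was -1.30 ± 0.48 (limma ± SE, adjusted p = 0.385). Myrf, the transcription factor that starts myelin gene expression, and Cldn11, a tight junction protein of myelin, were lower without overlap as well (-0.73 and -0.64, limma, adjusted p = 0.420 and 0.403). In the other direction, 3 of the 16 were higher in both series 2 libraries than in all others (39.8% of all genes): Mobp, Sirt2 and Itpr2. Mobp was at 4.68 and 7.86 TPM in series 2 and at 2.31 to 3.32 TPM in series 1. The members of this list that follow maturation, Mog and Opalin, had means under 1 TPM.

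Markers of other cell types were measured to see which cells the cultures held. The summed TPM of the 10 progenitor genes was between 1703 and 2562, of which Olig1 and Olig2 held 82.8% to 90.2%. The sum was 3455 to 4240 TPM for 9 neural stem cell genes, led by Vim, Nes and the cell cycle gene Top2a. Of these stem cell genes 1 of 9, Notch1, was higher at 8 h without overlap, against 23.7% of all genes (log2 fold change 0.12, limma, adjusted p = 0.560). The 8 astrocyte genes summed to 1085 and 1227 TPM at 1 h and to 1840, 1096 and 1894 TPM at 8 h, and 7 of the 8 were higher in series 2 without overlap, as were 39.8% of all genes. Aldh1l1, Slc1a3 and Aldoc were the most abundant. Slc1a3 and Gja1, 2 of the 8, were higher at 8 h without overlap, against 23.7% of all genes (log2 fold change 0.53 and 0.80, limma, adjusted p = 0.410 and 0.402). By series, 7 of the 8 astrocyte genes thus moved with Olig2 and Nkx2-2, and against Pcdh15, Lhfpl3 and Gpr17. This was not particular to astrocyte genes. Of the 9 stem cell genes, 6 were higher and 1 lower in both series 2 libraries than in all others, against 39.8% and 13.5% of all genes. The part of either list in these differences was not tested. Of 9 neuronal genes 8 were tested, at a median log2 fold change of 0.0034, and the sum was 228 to 473 TPM, led by Map2, Tubb3 and Snap25. Of the 8 tested, only Tubb3 was lower and only Syp higher at 8 h without overlap, against 9.43% and 23.7% of all genes (log2 fold change -0.76 and 0.30, limma, adjusted p = 0.402 and 0.446).

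Cell types outside the neural lineage were read from short lists. The 7 genes of perivascular fibroblasts and pericytes, cells that also express Pdgfra or surround vessels, summed to 12.6 to 115 TPM, nearly all of it Acta2, while Lum was at 0 in every library and Dcn and Col1a2 had means under 0.05 TPM. Acta2 was lower in series 2 (11.2 and 15.8 TPM) than in series 1 (75.8 to 114 TPM). Col1a1 and Kcnj8, both with means under 1 TPM, were instead higher in both series 2 libraries than in all others. The 4 Schwann cell genes, a type that also uses Sox10, summed to 1.21 to 3.22 TPM, most of it Prx. Of the 6 microglial genes none reached a mean of 1 TPM, the highest being P2ry12 (0.834 TPM), and Aif1, C1qa and Tmem119 were at 0 throughout. The 5 endothelial genes summed to at most 13.6 TPM, nearly all of it Flt1 (11.8 TPM on average), while Cldn5 and Cdh5 were at 0 and Tek and Pecam1 had means under 0.1 TPM. The 4 ependymal genes summed to 16.3 to 27.5 TPM, nearly all of it Foxj1 (19.2 TPM on average), which was lower at 8 h without overlap (log2 fold change -0.61, limma, adjusted p = 0.287).

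**Figure D5:**
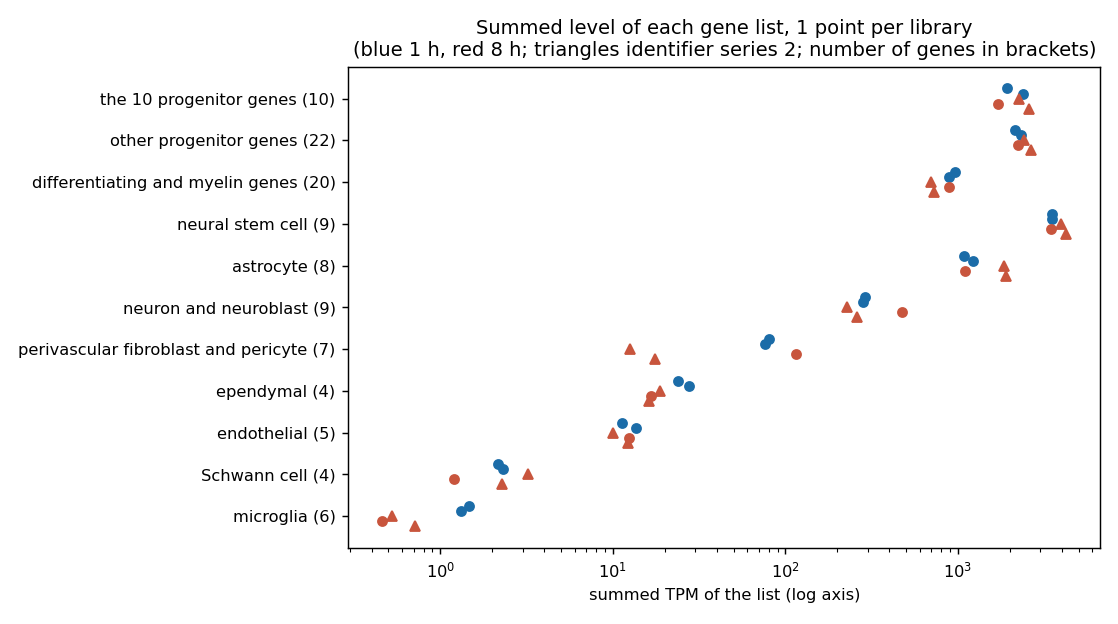
Summed TPM (log axis) of each gene list in each library, with the number of listed genes in brackets. Blue is 1 h, red is 8 h, and triangles are identifier series 2. The 10 progenitor genes sum to between 1703 and 2562 TPM, 82.8% to 90.2% of it Olig1 and Olig2, and the microglial genes to under 1.5 TPM. The triangles lie to the right for astrocyte genes and, by less, for neural stem cell genes. They lie to the left for myelin genes and for fibroblast or pericyte genes, whose sum is nearly all Acta2.

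The genes closest in profile to each of the 9 were sought among 9478 genes with a mean of at least 10 TPM, by the Euclidean distance between centred log2(TPM + 1) values over the 5 libraries. Olig2 was nearest to Sfrp1 (0.0684), Tpcn1 and Adgre5, Olig1 to Gm7332 (0.0854), Lsm5 and Tril, and Nkx2-2 to Nfix (0.107), Fzd2 and Snhg20. Pdgfra, whose profile was nearly flat, was nearest to Bbs1 (0.0313), R3hdm2 and Rpsa-ps10. Lhfpl3 was nearest to Rogdi (0.0741), and its next neighbour was Cacng4 (0.0898), itself on the list of further progenitor genes. Pcdh15 was nearest to the mitochondrial gene mt-Nd1 (0.0895), then to Fat1 and B3gat2. The nearest genes of Sox10 were 1700086L19Rik (0.171), Gm15772 and Ugdh, those of Gpr17 were 4932438A13Rik (0.151), Fbxo7 and Rb1cc1, and those of Bcas1 were Ube2a (0.231), Pan3 and Akap13. Within the 9 genes, the shortest distance was between Pcdh15 and Lhfpl3 (0.298), and Olig1 and Olig2 were each nearest to the other (0.407). No progenitor gene of the 10 was thus among the 3 nearest of another. With 5 points that fall into 2 series, many genes share any such profile, and the distances are a description.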

How the data were processed

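RNA-sequencing was done by the authors on stranded, poly-A selected paired-end libraries, aligned to GRCm38 with STAR in nf-core/rnaseq. The processing notes name bcl2fastq 2.19.1.403. For each library the authors deposited a table of TPM, FPKM and mean per-base coverage (signal) per gene, with a tool that no source used here names. They also deposited one table of raw featureCounts counts, described as filtered, which lists 7599 genes, with column totals from 13988166 to 18572154 counts. All columns were assigned by name, with 0 left over. The groups differ by time and in part by identifier series.

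TPM rows were summed per gene ID (15 to 20 extra rows per table). The test was limma 3.58.1 (R 4.3.3) with a trend on log2(TPM + 1), genes with a mean of at least 1 TPM, a scale that understates the change of low genes. Counts were tested with edgeR 4.0.16 (quasi-likelihood, TMM, filterByExpr), with DESeq2 1.42.0 and limma-voom as alternatives, and CPM were scaled to column totals. Replicates of 2 and 3 libraries set the precision, and p-values measure the spread between these libraries. Both tests were checked on simulated data without a series difference, so this check does not cover the split by series. Upstream sequences came from RefSeq (GRCm38.p6), where 6 of the 10 genes matched, and exons from GENCODE. The protein sequences were not used here.

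The members, lists and tests were chosen with earlier results of these data known. Named were all 10 genes, and of the other lists the 3 with the highest mean, any called and up to 3 with groups that do not overlap, by fold change (genes under 1 TPM of other cell types mostly unnamed), then the 3 nearest profiles of each member. Ddx3y, Eif2s3y, Kdm5d, Uty and Xist served as a check of the label. Pdgfrb, Olig3, Mog, Opalin, Mobp, Itpr2, Luzp2, Dcn, Col1a1, Col1a2, Kcnj8 and genes at 0 were named after their values were seen. Depth-scaled coverage as an alternative (pseudocount 0.1), with and without the series term, was also chosen after values were seen.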

Additional observations from a re-analysis of the deposited data

How the results depend on the processing

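No member was called under any alternative, in TPM or in counts. The number of genes called by limma, 6 as reported, was 0 without the filter on low values, 19 with the series term, 21 with coverage and the series term, and from 0 to 568 when 1 library was left out, the highest without 8 h replicate 14. The median log2 fold change of the members, -0.14 as reported, ranged from -0.24 to 0.098 on leaving out 1 library and turned positive without 1 h replicate 2. Lhfpl3 kept a negative fold change under every alternative, and Pcdh15 under all but coverage with the series term (0.24), where Olig2 (-0.10), Sox10 (0.15) and Nkx2-2 (-0.28) also reversed. With the series as a term, and equally in series 1 alone, signs reversed for Olig2 (-0.089), Sox10 (0.15), Gpr17 (0.0080) and Nkx2-2 (-0.35). The small positive value of Pdgfra became -0.090 with median-ratio scaling, -0.046 with FPKM and -0.026 with coverage. Leaving out 1 library gave ranges that crossed 0 for Pdgfra (-0.067 to 0.098), Bcas1 (-0.37 to 0.057), Olig1 (-0.24 to 0.15) and Sox10 (-0.41 to 0.13) in TPM, and for Sox10 (-0.18 to 0.44), Pdgfra (-0.18 to 0.033) and Bcas1 (-0.49 to 1.16) in counts. The causes were not tested beyond the libraries each fit held. Median-ratio scaling moved the median of all genes from 0.10 to 0.0018. No paired analysis was possible because the groups share no replicate number. At 1 TPM or less, as for Matn4, depth limits any statement on change. Counts for Olig1, Olig2, Gpr17, Lhfpl3, Pcdh15 and Matn4 were not used here.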

Other observations

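In the count table, the column named 8 h replicate 14, which matched no TPM table, carried high counts of genes of differentiating oligodendrocytes, a pattern chosen after the values were seen. Of 15 such genes in that table, 13 were highest in this column, against 26.9% of all genes of the table, and 9 of the 15 exceeded every other column by more than 1.5 times, against 2.75% of all genes. Myrf, the transcription factor that starts myelin gene expression, had 126 CPM there and 7.54 to 30.5 CPM in the others, and Mag, encoding a myelin adhesion protein, 63.8 CPM against 4.74 to 12.9 CPM. Bcas1 was the 1 of 4 progenitor genes that shared this, whereas Pdgfra, at 202 CPM, was lower than in 2 of the other columns. Of 13 further progenitor genes, 5 were highest in this column and 1, Tnr, by more than 1.5 times. With 1 column there is no replicate check, and no TPM values for that library were used here.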
